A study of Caenorhabditis elegans with 2 samples.

Results

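The second-tier regions described here are 603 stretches of autosomal promoter, each 404 bp wide, at which the tagged transcription factor ETS-4 gave a moderate chromatin immunoprecipitation sequencing (ChIP-seq) signal in late embryos of the nematode Caenorhabditis elegans. They were taken from the 12348 regions of the list that the authors made from both replicates pooled. A region was kept when it lay off chromosome X, had a signal value from 45 to below 70, overlapped no peak of the authors' reproducible list and overlapped a region in both replicate lists by 1 bp or more. Its summit also had to fall in a promoter window, which reached 1000 bp before and 200 bp past the start of a protein-coding transcript. Of 1205 autosomal regions in the signal band, 1164 overlapped no reproducible peak, 1100 of those were found in both replicates, and 603 of the 1100 had a promoter summit. The reproducible list was selected by the irreproducible discovery rate (IDR), a method that keeps regions whose rank is stable between replicates. Its 673 autosomal promoter peaks (672 distinct intervals) are called IDR promoter peaks and serve as the comparison. A second comparison is with 1739 low-ranked promoter regions, which are autosomal, had a pooled signal under the list median of 31.2 and overlapped no IDR peak.

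The embryos were hermaphrodites of strain OP509, collected 5 hours after egg bleaching, and both samples carried the allele unc-119(tm4063) III and the insertion wgIs509. The insertion gives stable expression of ETS-4 with GFP and FLAG at its C-terminus. Sonicated chromatin was precipitated with an antibody against GFP, although the antibody field of the labels reads ets-4. The 2 samples were biological replicates of 1 group, so no comparison between conditions was possible. Whole embryos were used, so a region cannot be assigned to a tissue, and the promoter that drives the transgene is not given in the sources used here. Only region lists were analysed. They hold no read counts, and sequencing depth is therefore unknown.

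ETS factors bind DNA through a winged helix-turn-helix domain that reads the core GGAA, and many family members prefer CCGGAA or CCGGAAGT. In worms ETS-4 is known from work on lifespan, fat stores and the regrowth of cut axons. Many worm genes receive a spliced leader in place of their own first bases, so that an annotated start can lie downstream of the place where transcription begins. The GA-rich word GAGAGA, called the repeat word here, is common in worm promoters, and GAGACGCAG, called the joined word, was built from overlapping 6-base words. Both had been noted in earlier results from these lists.

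Sequences are shown for the regions on which the word results turn, because a count of matches does not show the bases around them. Each runs 5′ to 3′ on the plus strand of ce11, from 100 bp before to 100 bp after the summit, and was shortened where annotated untranslated bases began (C34B4.2, mccc-1 and thoc-5). Capitals mark the named word or its reverse complement. Of the second-tier regions with the joined word, 4 of high signal are shown, at smap-1, at lec-1 (a galectin), at C34B4.2 and at vps-37 (a subunit of the ESCRT-I sorting complex).
smap-1, chrIII:10739968-10740168: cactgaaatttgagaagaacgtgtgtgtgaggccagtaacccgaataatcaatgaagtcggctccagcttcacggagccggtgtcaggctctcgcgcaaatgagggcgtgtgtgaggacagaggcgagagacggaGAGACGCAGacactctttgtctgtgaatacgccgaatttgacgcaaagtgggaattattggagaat
lec-1, chrII:13195291-13195491: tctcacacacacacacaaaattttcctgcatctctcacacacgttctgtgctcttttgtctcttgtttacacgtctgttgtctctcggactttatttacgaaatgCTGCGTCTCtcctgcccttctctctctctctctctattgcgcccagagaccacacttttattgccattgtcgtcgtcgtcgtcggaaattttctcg
C34B4.2, chrV:13086074-13086194: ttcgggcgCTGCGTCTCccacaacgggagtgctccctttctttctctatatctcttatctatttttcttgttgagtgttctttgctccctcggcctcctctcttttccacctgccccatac
vps-37, chrV:5592431-5592631: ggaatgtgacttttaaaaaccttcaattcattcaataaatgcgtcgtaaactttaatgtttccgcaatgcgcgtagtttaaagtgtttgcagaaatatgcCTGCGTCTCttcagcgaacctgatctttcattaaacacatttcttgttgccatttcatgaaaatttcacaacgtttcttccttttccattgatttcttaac
In 3 of these the word lies on the minus strand, and the plus strand printed here shows its reverse complement CTGCGTCTC. Next are 3 of high signal with at least 2 separate repeat words, at bcl-11, at mccc-1 (an enzyme of leucine breakdown, whose region also lies in the window of prp-18) and at mlp-1 (a muscle LIM protein).
bcl-11, chrV:6355466-6355666: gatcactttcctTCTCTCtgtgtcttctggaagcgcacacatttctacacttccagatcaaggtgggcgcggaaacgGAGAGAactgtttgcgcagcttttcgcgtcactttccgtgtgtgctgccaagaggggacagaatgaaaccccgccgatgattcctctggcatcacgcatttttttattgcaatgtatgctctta
mccc-1, chrIV:9884384-9884579: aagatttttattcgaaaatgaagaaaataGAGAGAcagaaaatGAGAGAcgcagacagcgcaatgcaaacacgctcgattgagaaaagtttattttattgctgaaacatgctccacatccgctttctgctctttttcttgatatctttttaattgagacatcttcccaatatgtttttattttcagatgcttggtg
mlp-1, chrIII:5974471-5974671: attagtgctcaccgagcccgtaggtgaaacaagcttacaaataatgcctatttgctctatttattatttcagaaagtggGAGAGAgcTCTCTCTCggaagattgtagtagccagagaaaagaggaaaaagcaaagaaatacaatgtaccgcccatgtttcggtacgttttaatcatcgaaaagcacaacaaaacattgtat
The following 3 hold an ETS site, which is the full consensus at F48G7.4 and CCGGAA at wee-1.3 (a kinase that restrains cell division) and cnb-1 (the regulatory subunit of calcineurin).
F48G7.4, chrV:619137-619337: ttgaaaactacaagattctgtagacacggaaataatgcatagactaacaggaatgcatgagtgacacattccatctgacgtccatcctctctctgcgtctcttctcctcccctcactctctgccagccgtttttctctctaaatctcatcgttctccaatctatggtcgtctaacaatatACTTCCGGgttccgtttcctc
wee-1.3, chrII:9716745-9716945: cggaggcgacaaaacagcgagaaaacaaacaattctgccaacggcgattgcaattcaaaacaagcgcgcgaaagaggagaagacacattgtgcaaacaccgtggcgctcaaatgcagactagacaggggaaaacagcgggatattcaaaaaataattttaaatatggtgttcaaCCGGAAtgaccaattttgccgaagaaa
cnb-1, chrV:11375243-11375443: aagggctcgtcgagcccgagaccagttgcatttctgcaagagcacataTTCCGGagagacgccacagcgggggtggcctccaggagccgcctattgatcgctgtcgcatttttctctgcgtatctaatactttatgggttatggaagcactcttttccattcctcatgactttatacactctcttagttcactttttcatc
For comparison, these are the 2 highest IDR promoter peaks with the joined word, at Y41D4A.4 and madf-11.
Y41D4A.4, chrIV:1745655-1745855: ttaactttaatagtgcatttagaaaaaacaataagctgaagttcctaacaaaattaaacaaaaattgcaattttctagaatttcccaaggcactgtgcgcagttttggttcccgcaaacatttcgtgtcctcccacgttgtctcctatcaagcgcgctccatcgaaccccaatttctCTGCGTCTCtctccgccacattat
madf-11, chrIII:5603715-5603915: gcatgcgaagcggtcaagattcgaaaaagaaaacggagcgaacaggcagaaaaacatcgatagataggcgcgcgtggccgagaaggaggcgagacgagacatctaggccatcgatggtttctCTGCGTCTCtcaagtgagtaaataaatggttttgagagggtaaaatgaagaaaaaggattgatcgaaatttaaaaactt
The last pair are the 2 highest IDR promoter peaks with CTAGGCC, a word chosen after the 6-base words had been counted, at thoc-5 (a THO complex subunit of messenger RNA export) and mog-3 (needed for the switch from sperm to oocytes).
thoc-5, chrIII:5349402-5349556: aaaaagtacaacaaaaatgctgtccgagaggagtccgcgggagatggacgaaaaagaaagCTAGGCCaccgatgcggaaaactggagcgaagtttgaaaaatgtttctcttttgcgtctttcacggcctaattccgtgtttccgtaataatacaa
mog-3, chrIII:5308332-5308532: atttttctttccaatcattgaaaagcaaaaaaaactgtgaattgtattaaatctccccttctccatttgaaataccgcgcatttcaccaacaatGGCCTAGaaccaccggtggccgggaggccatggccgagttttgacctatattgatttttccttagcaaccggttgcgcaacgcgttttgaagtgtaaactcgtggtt

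Signal chose the second-tier regions and is therefore given as a description. The signal is the authors' own value per region and served to rank regions within a list. The pooled signal had a median of 54.2 (quartiles 48.5 and 61.0), against 113.8 (84.5 and 164.6) in IDR promoter peaks and 26.96 (25.5 and 28.8) in low-ranked promoter regions. The deposited −log10 q of the second-tier regions ran from 0.926 to 2.41, with a first quartile of 1.13 and a median of 1.56. In the replicate lists, where lower values likewise mean weaker support, it was lower. The median was 0.960 in replicate 1 (lowest 0.0325) and 1.14 in replicate 2 (lowest 0.0222). In IDR promoter peaks the pooled median was 3.29. The lowest members lay at nol-6 (45.004) and W05B5.1 (45.02), and the regions just below them lay at snrp-3 (44.99) and lin-41 (44.99). The highest lay at nhr-49 (69.98) and bcl-11 (69.80), and the regions just above the band lay at F56H9.2 (70.03) and dpy-17 (70.10). The lowest IDR promoter peaks followed at D2096.6 (71.13) and pqn-68 (71.15), so the upper bound sat within about 1 signal unit of the IDR list.

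The 10 regions of highest signal lay at genes of unlike function. The region at nhr-49, a nuclear receptor of fat metabolism, had its summit at I:9869370, 281 bp upstream of the start, and signals of 31.5 in replicate 1 and 41.0 in replicate 2. That at bcl-11 (V:6355566, 459 bp upstream) had 39.4 and 29.7. That at rsbp-1 (I:9077453), whose product binds regulators of G protein signalling, had 40.2 and 30.4. The replicates were closer at Y37B11A.3 (III:5785748), with 36.4 and 37.4, and at ubc-7 (III:9631458), a ubiquitin-conjugating enzyme of the endoplasmic reticulum, with 32.3 and 35.8. They were far apart at hmg-1.2 (III:6280429), an HMG-box chromatin protein, with 16.8 in replicate 1 and 52.4 in replicate 2, and their summits there were 199 bp apart. The reverse held at Y54G2A.45 (IV:2805736), with 48.1 and 18.4, where the summits were 15 bp apart. The remaining regions of the 10 lay at smap-1 (30.5 and 46.2), F40F11.3 (29.96 and 40.01) and pdtf-1 (28.3 and 38.5). Replicate 2 was higher in 7 of the 10 and replicate 1 in 3.

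Across all 603 regions the replicate signals were alike in level and did not rise together. Replicate 1 values ran from 13.8 to 55.1 with a median of 26.7, and replicate 2 values from 13.2 to 52.4 with a median of 27.2. Replicate 1 was higher in 284 regions (47.1%). The replicate values lay within 1.5-fold of each other, after the median ratio was removed, in 396 regions (65.7%), and differed by more than 2-fold in 67. The rank correlation between replicates was −0.35 across the 603 regions, against 0.68 across 672 IDR promoter peaks and 0.17 across the 376 low-ranked promoter regions found in both replicates. A band on the pooled signal makes a high value in one replicate go with a low value in the other, so the negative sign follows from how the regions were chosen. Regions are not independent replicates, and no p-value is given for these correlations.

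Summit positions were less tightly matched between replicates than in the IDR promoter peaks. The replicate summits were a median of 40 bp apart, against 21 bp in IDR promoter peaks and 150 bp in the 376 low-ranked promoter regions found in both replicates. They lay within 50 bp of each other in 353 of 603 regions (58.5%), in 82.7% of the IDR promoter peaks and in 16.8% of those 376 low-ranked regions. In the replicate lists the second-tier regions held ranks from 468 to 14173 of 15619 (median 2164) in replicate 1 and from 611 to 14235 of 14622 (median 2150) in replicate 2. Of the 603, 54 were among the top 1106 regions of replicate 1, 49 were among those of replicate 2, and 0 were in both. The limit on pooled signal and the rule against IDR overlap both select against a high rank in both lists. How far they set this 0 was not tested.

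**Figure D1:**
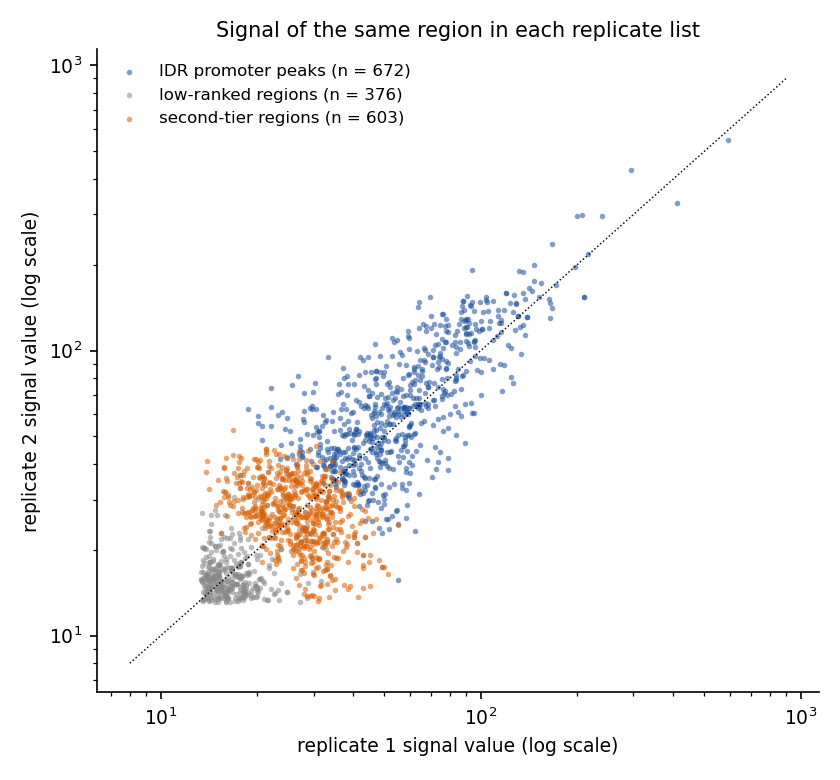
Signal value of each promoter region in the replicate 1 list (x axis, log scale) and the replicate 2 list (y axis, log scale), with second-tier regions in orange, IDR promoter peaks in blue and low-ranked regions found in both replicates in grey. The dotted line marks equal values. The 603 second-tier regions form a band that slopes downward (rank correlation −0.35) between the other groups, as the limits on pooled signal require.

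Second-tier regions lay at promoters less often than IDR peaks and more often than weak regions. Before the promoter rule was applied, 603 of the 1100 autosomal regions in the band (54.8%, 95% Wilson interval 51.9 to 57.7%) had a promoter summit. The share was 72.4% in 930 autosomal IDR peaks (odds ratio 0.463, 95% Woolf interval 0.385 to 0.558, two-sided Fisher's exact p = 2.74e-16) and 34.0% in 5111 autosomal low-ranked regions (odds ratio 2.35, 95% interval 2.06 to 2.68, exact p = 5.69e-37). These and later tests treat each region as an independent draw, so their p-values say nothing of the variation from animal to animal. Intervals cover counting error only.

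Within promoter windows, the distance to the nearest start did not differ past the threshold between the tiers, and the place in the gene models did. The median distance was 195 bp for second-tier summits and 198 bp for IDR summits, and 51.6% against 50.1% lay within 200 bp of a start (odds ratio 1.06, 95% interval 0.852 to 1.32, exact p = 0.614). Summits in coding exons numbered 19 among second-tier regions (3.15%) and 4 among IDR promoter peaks (0.594%). The odds ratio was 5.44, with a 95% interval from 1.84 to 16.1 and an adjusted exact p of 0.00341 over 6 kinds of place. Intergenic summits made up 67.0% of second-tier regions and 74.3% of IDR promoter peaks, and the odds ratio of 0.702 had a 95% interval from 0.551 to 0.895 (adjusted exact p = 0.0136). Intronic summits made up 12.3% and 8.77%, a difference that missed the threshold of 0.05 with an odds ratio of 1.46 and an adjusted exact p of 0.0812. Low-ranked promoter summits lay further along the same order, with 16.8% in coding exons, 23.3% in introns and 45.7% in intergenic stretches. The coding exon difference was lost without chromosome III (odds ratio 3.62, adjusted exact p = 0.149) and against the lower 50% of IDR promoter peaks (3.61, adjusted exact p = 0.120), and was 15.2 without replicate 1. The intergenic difference was lost without chromosome III and against the lower 50% as well (0.807, adjusted exact p = 0.408, and 0.873, adjusted exact p = 0.457). The intronic one passed without replicate 2 (1.63, adjusted exact p = 0.00894) and with windows from 2000 bp upstream (1.47, adjusted exact p = 0.0244). Here and below, leaving out a replicate means that both tiers were rebuilt by rank from the list of the other replicate. The replicate overlap rule then fell away, and the top 1106 regions of that list, called the upper tier, stood in for IDR peaks. Such values compare other sets of regions.

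Second-tier regions were less often shared between neighbouring genes than IDR promoter peaks were. More than 1 gene had the summit in a promoter window in 183 of 603 second-tier regions (30.3%, 95% Wilson interval 26.8 to 34.1%) and in 301 of 673 IDR promoter peaks (44.7%, 95% interval 41.0 to 48.5%). The odds ratio was 0.538 (95% Woolf interval 0.428 to 0.678, exact p = 1.38e-07). Of the low-ranked promoter regions, 14.5% were shared in this way (odds ratio of second-tier over low-ranked regions 2.57, 95% interval 2.07 to 3.20, exact p = 1.02e-16). Genes on both strands, the arrangement of a divergent promoter, accounted for 28.9% of second-tier regions, 41.3% of IDR promoter peaks (exact p = 3.56e-06) and 12.9% of low-ranked regions. Most second-tier regions (420) touched the window of 1 gene, 178 touched 2, 4 touched 3 and 1 touched 4.

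The autosomes held second-tier regions and IDR promoter peaks in similar shares, and 0 of 5 differed after adjustment, with the lowest adjusted exact p at 0.0553 (chromosome IV, 19.9% against 14.4%). At an unadjusted p under 0.05, chromosomes II (16.7% against 21.5%) and IV differed. Chromosome III held 23.7% of second-tier regions, 25.4% of IDR promoter peaks (odds ratio 0.913, adjusted exact p = 0.859) and 17.3% of low-ranked regions. Small nucleolar RNA genes, which guide the modification of ribosomal RNA, lay within 500 bp of 6 second-tier summits (0.995%) and 24 IDR promoter summits (3.57%). The odds ratio was 0.272, its 95% interval ran from 0.110 to 0.669, and the adjusted exact p over 10 gene types was 0.0259. This call was lost with promoter windows of 500 bp upstream and 100 bp downstream (odds ratio 0.327, adjusted exact p = 0.145) and under 5 other settings. Transfer RNA genes lay within 500 bp of 12 second-tier summits (1.99%) and 10 IDR promoter summits (1.49%), an odds ratio of 1.35 whose 95% interval ran from 0.577 to 3.14 (adjusted exact p = 0.864).

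**Figure D2:**
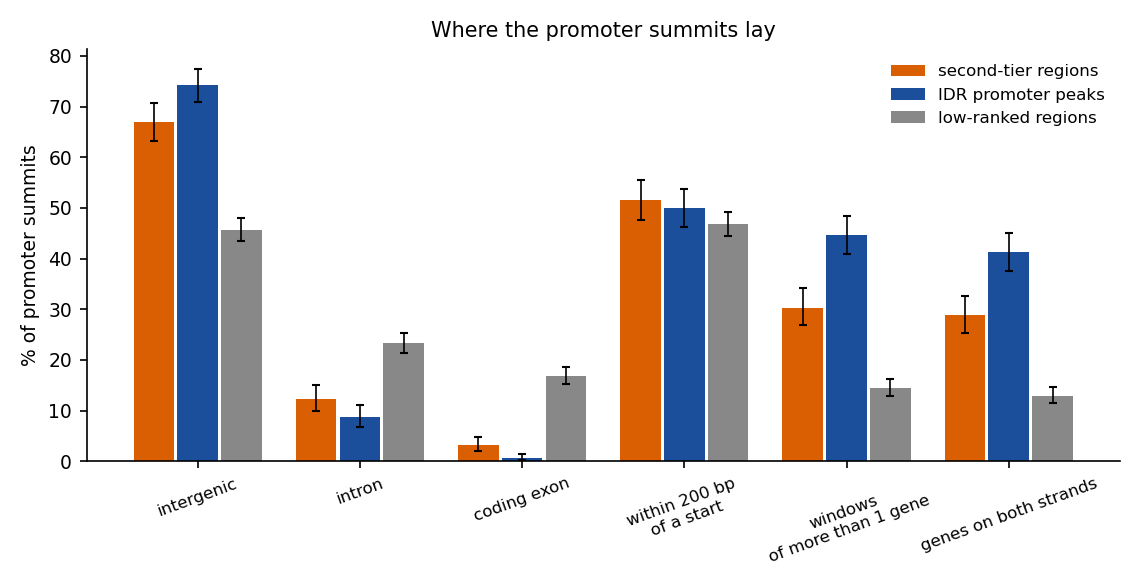
Share of promoter summits (y axis, percent) by place in the gene models, by distance to the nearest start and by number and strand of the genes whose promoter windows hold the summit. Bars are second-tier regions (orange), IDR promoter peaks (blue) and low-ranked regions (grey), and error bars are 95% Wilson intervals. The second-tier bars lie between the others for intergenic, intronic and coding positions and for windows of more than 1 gene (30.3%, 44.7% and 14.5%).

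The sequence difference between the tiers was a lower frequency of words with GGC or GCC in the second-tier regions. The share of summits with each word within 100 bp, on either strand, was compared for all 2080 words of 6 bases, with reverse complements merged, and for 12 fixed motifs of other lengths. Of the 2092 features, 18 (0.86%) were less frequent in second-tier regions than in IDR promoter peaks at an adjusted p under 0.05 (Fisher's exact test, Benjamini-Hochberg over 2092). No feature was more frequent (0 of 2092), and at an unadjusted p under 0.05 the counts were 123 lower and 91 higher. Of the 18 words, 13 contain GGC or GCC, as do 233 of the 2080 words of 6 bases, and 9 contain GGCC, as do 26 of the 2080. These patterns were picked after the words were seen. Against low-ranked regions, 10 of the 18 were more frequent in second-tier regions, 8 did not pass the threshold and 0 were less frequent. Without replicate 2, 7 features were more frequent in second-tier regions than in the upper tier. The lowest p belonged to GGCCTA, called the top-peak word, which lay near 41 of 603 second-tier summits (6.80%) and 134 of 673 IDR summits (19.9%). Its odds ratio was 0.293 (95% interval 0.203 to 0.425, adjusted exact p = 7.85e-09).

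Most of the other words of lowest p also hold GGCC. The word CTAGGC was found in 6.14% of second-tier regions against 17.1% of IDR promoter peaks, GGCCAC in 8.79% against 20.5% and AGGCCA in 8.79% against 20.1%. ACGGCC was found in 4.98% against 14.1%, GGCCGA in 6.80% against 16.6% and CGGCCA in 8.46% against 18.7%. CTAGAA was found in 8.96% against 17.7%, and in 11.2% of low-ranked regions. CACGGC was found in 7.13% against 15.01% and ATGGCC in 5.804% against 12.9%. Without replicate 2, CTAGAA (odds ratio 0.665, adjusted exact p = 0.225) and ATGGCC (odds ratio 0.547, adjusted exact p = 0.0934) no longer passed. CTAGGCC, the word shown at thoc-5 and mog-3 and chosen after the counts were seen, was in 22 second-tier windows (3.65%, 95% Wilson interval 2.42 to 5.46%) and 107 IDR windows (15.9%, 95% interval 13.3 to 18.9%). It was in 1.955% of low-ranked windows and in 1.45% of all 25190 autosomal promoter windows of the same length, taken just upstream of each start.

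The share of autosomal promoter regions with the top-peak word was low across the second-tier band and higher above it. Each signal step counts all autosomal promoter regions, so steps in the band include regions with IDR overlap or found in 1 replicate only. The word lay near 5.73% of summits with signal from 45 to below 50, 8.16% from 50 to 57 and 6.40% from 57 to 70. Above the band the share was 11.2% from 70 to 90, 13.3% from 90 to 120, 27.8% from 120 to 200 and 32.7% at 200 or more. Below the band it was 4.29% under 30, 4.03% from 30 to 35 and 3.69% from 35 to 45, and all autosomal promoters had 3.29%. Against the lower 50% of IDR promoter peaks by signal, the difference in this word no longer passed (odds ratio 0.540, adjusted exact p = 0.683) and 0 words were called lower. At 400 to 600 bp from the summit the odds ratio was 1.00 and 0 words were called lower. With the signal band narrowed to 50 to below 65, 4 words were called lower.

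**Figure D3:**
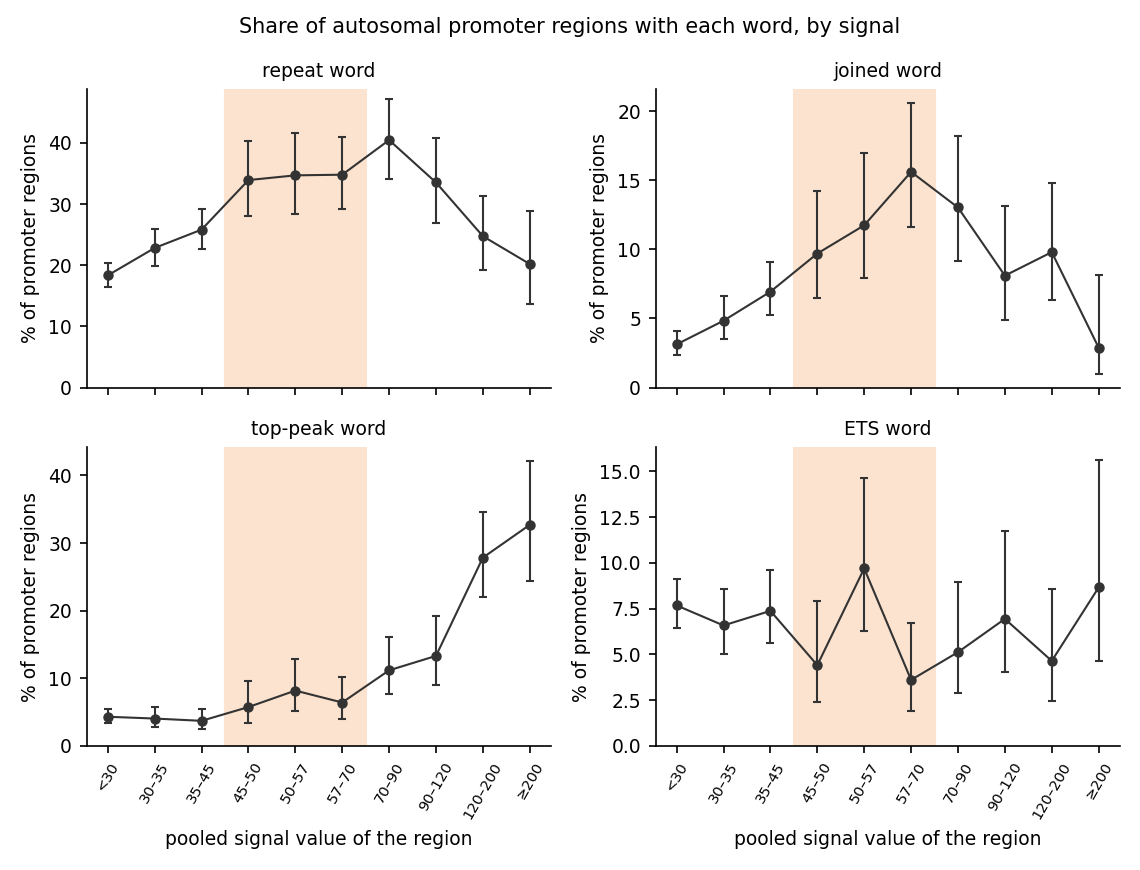
Share of autosomal promoter regions (y axis, percent, own scale in each panel) with the repeat word, the joined word, the top-peak word or the ETS word within 100 bp of the summit, by the pooled signal of the region (x axis, 10 steps). Points are shares with 95% Wilson intervals, and the shaded band is the second-tier signal range, IDR overlaps and regions found in 1 replicate only included. The joined word is highest at 57 to 70 (15.6%), with an interval that overlaps that of the next step, 70 to 90 (13.0%). The top-peak word stays under 9% up to 70 and reaches 32.7% at 200 or more.

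The repeat and joined words were more frequent in second-tier regions than in low-ranked regions and did not differ past the threshold from IDR promoter peaks. Both words had been noted in earlier results from these lists, so the tests below describe the lists and are not independent support for the words. The repeat word lay near 211 second-tier summits (34.99%, 95% Wilson interval 31.3 to 38.9%) and 207 IDR summits (30.8%), with an odds ratio of 1.21 (95% interval 0.959 to 1.53, adjusted exact p = 0.668). The joined word lay near 75 second-tier summits (12.4%, 95% Wilson interval 10.0 to 15.3%) and 62 IDR summits (9.21%), with an odds ratio of 1.40 (95% interval 0.981 to 2.00, adjusted exact p = 0.554). Low-ranked promoter regions had the repeat word in 18.7% (odds ratio of second-tier over low-ranked regions 2.34, adjusted exact p = 2.80e-13) and the joined word in 3.11% (odds ratio 4.43, 95% interval 3.08 to 6.37, adjusted exact p = 2.01e-13). All autosomal promoters had them in 16.6% and 2.58%. The joined word rose from 3.12% of promoter regions with signal under 30 to 15.6% at 57 to 70 (95% Wilson interval 11.6 to 20.6%). Just above the band, at 70 to 90, it was at 13.0% (95% interval 9.17 to 18.2%), so these steps overlapped. It was at 8.09% from 90 to 120, 9.79% from 120 to 200 and 2.88% (3 of 104) at 200 or more.

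The joined word and the repeat word often occurred in the same region. Of the 75 second-tier regions with the joined word, 52 also held the repeat word, which can overlap it by 4 bases. The highest of the 75 lay at rsbp-1 (69.7), smap-1 (69.5), lec-1 (68.8), C34B4.2 (67.9), met-1 (67.2) and rpl-41.2 (67.2). At met-1, a histone methyltransferase, the replicate values were 51.1 and 16.4, and at rpl-41.2, a ribosomal protein, they were 28.8 and 44.3. In the 429 second-tier regions with genes on 1 strand, the joined word lay on the strand of the gene in 19, on the other strand in 42 and on both in 0. The repeat word lay on the strand of the gene in 47, on the other strand in 102 and on both in 20. In the corresponding 395 IDR promoter peaks the repeat word was split 44 to 78 and the joined word 24 to 22, and in 1514 low-ranked regions they were split 79 to 199 and 18 to 25. Differences between the sets in strand were not tested.

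Matches of the repeat and joined words were centred on the summits. In the 50 bp on either side of the summit, the joined word was centred in 4.81% (upstream on the plus strand) and 3.81% (downstream) of second-tier regions, against 0.166% and 0.332% in the outermost steps 450 to 500 bp away. The repeat word was centred there in 16.3% and 13.3%, against 1.82% and 2.82% in the outermost steps. Low-ranked regions had a weaker peak, with the repeat word in 6.15% and 6.10% against 3.05% and 2.70% in the outermost steps. Their joined word was centred there in 0.920% and 1.15%, against 0.518% and 0.173%. The top-peak word was centred there in 2.32% and 2.49% of second-tier regions and in 9.21% and 8.17% of IDR promoter peaks. The ETS site CCGGAA did not peak at the summit of second-tier regions. It was centred there in 2.49% and 1.16%, against 3.48% and 1.82% in the outermost steps. The sequences at lec-1 and vps-37 show the case of the joined word, which lies within a few bases of the middle of the window. At smap-1 and C34B4.2 it lies farther from the summit.

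**Figure D4:**
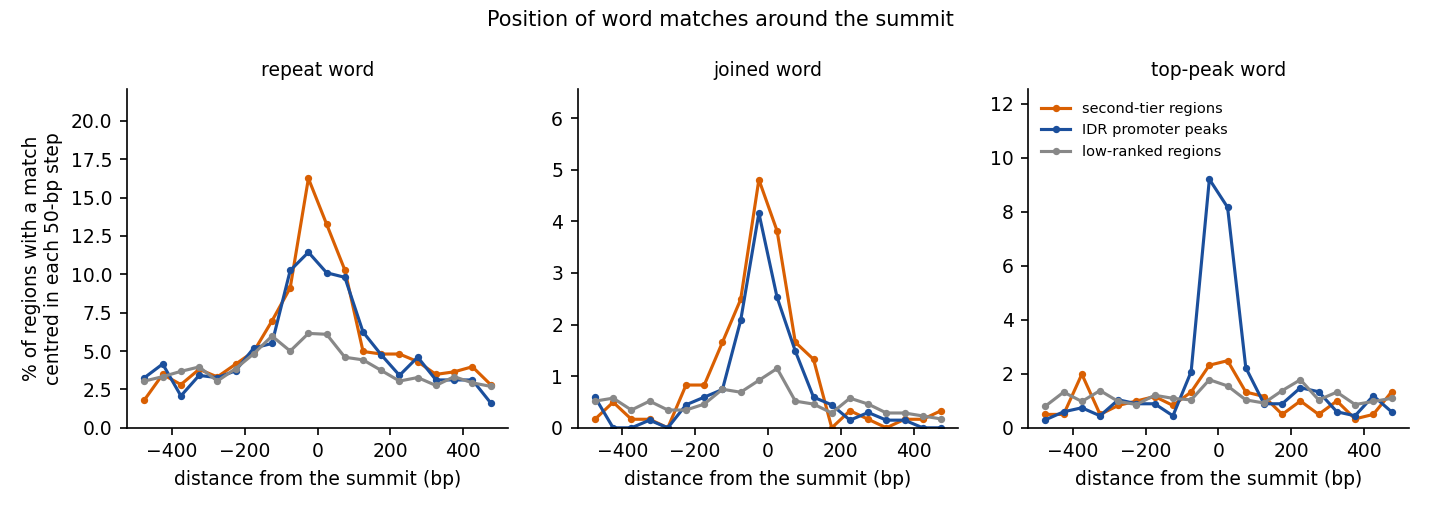
Share of regions (y axis, percent, own scale in each panel) with a match of the repeat word, the joined word or the top-peak word centred in each 50-bp step, by distance from the summit (x axis, bp, plus strand). Lines are second-tier regions (orange), IDR promoter peaks (blue) and low-ranked regions (grey). The repeat and joined words peak at the summit in both upper groups, and to a lesser degree in low-ranked regions. The top-peak word peaks there mainly in IDR promoter peaks (9.21% against 2.32% of second-tier regions in the step just before the summit).

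ETS sites did not differ in frequency past the threshold from either comparison set. CCGGAA lay near 38 second-tier summits (6.30%), 6.09% of IDR summits, 7.53% of low-ranked summits and 5.68% of all autosomal promoters. The odds ratio of second-tier regions over IDR promoter peaks was 1.04, with a 95% interval from 0.657 to 1.64 (adjusted exact p = 1). Matches to the longer site CCGGAAGT lay near 3 second-tier summits and 1 IDR summit. The 3 were at F48G7.4 (signal 52.9), at gap-3 (47.7), a Ras GTPase-activating protein, and at ncap-1 (45.7), and all lay below the median signal of the second-tier regions. The highest regions with CCGGAA lay at wee-1.3 (67.4), at rpc-2 (66.3), a subunit of RNA polymerase III, and at cnb-1 (66.1). They were followed by seip-1 (63.3), the worm seipin of lipid droplets, tex-2 (61.9) and ragc-1 (59.4), a Rag GTPase of nutrient sensing. The core GGAA, which is short enough to be in most windows, lay near 83.3% of second-tier summits and 86.7% of low-ranked ones. None of the 19 fixed motifs differed between second-tier regions and IDR promoter peaks (0 of 19 past the threshold, and 0 at an unadjusted p under 0.05). In the sets rebuilt without replicate 2, the GATA factor site TGATAA was more frequent in second-tier regions than in the upper tier (odds ratio 2.20, adjusted exact p = 0.00253). Second-tier regions against IDR promoter peaks gave an odds ratio of 1.40 (adjusted exact p = 0.603). Of the 603 regions, 345 held none of the repeat word, the joined word and CCGGAA.

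Against low-ranked promoter regions the sequence difference was broad. Of the 2092 features, 269 (12.9%) were more frequent and 193 (9.23%) less frequent in second-tier regions at an adjusted p under 0.05 (Fisher's exact test, Benjamini-Hochberg). Most low-ranked regions were not found in both replicates, as second-tier regions had to be. Against the smaller set of 376 low-ranked regions that were, the counts were 86 and 48. Of the 269, 175 contain the dinucleotide CG, as do 604 of the 2080 words, and 3 of the 193 do. The lowest p belonged to CGTCTC, found in 28.2% of second-tier and 10.3% of low-ranked windows (odds ratio 3.42, 95% interval 2.70 to 4.33), and to GACGCA, found in 23.2% and 7.53% (odds ratio 3.71, 95% interval 2.86 to 4.81). Both are parts of the joined word, which had been noted in earlier results from these lists. The GATA factor site TGATAA was less frequent, with 10.3% against 18.7%, an odds ratio of 0.497 whose 95% interval ran from 0.372 to 0.663 (adjusted exact p = 2.14e-05), and it was in 7.58% of IDR windows and 22.1% of all autosomal promoters. The mean GC content of the windows was 42.2% ± 7.91 (SD, n = 603) in second-tier regions, 42.8% ± 7.55 (n = 673) in IDR promoter peaks and 37.6% ± 7.97 (n = 1739) in low-ranked regions, and its part in these word counts against low-ranked regions was not tested.

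The second-tier regions lay in the promoter windows of 774 of 17242 autosomal protein-coding genes (4.49%), and the IDR promoter peaks in those of 968 (5.61%). Both were found at 19 genes. How far the rule that second-tier regions overlap no IDR peak bears on this number was not tested. Of 32 classes fixed by gene name, 18 had a larger share of genes with a second-tier region than all genes had. Shares were lower than for IDR promoter peaks in 19 classes, higher in 6 and equal in 7. Classes are described by counts and shares with 95% Wilson intervals, without a test. A shared region counts for each of its genes, and the name patterns also take in a few genes of other function, such as cdc-5L in the cell cycle class.

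Cytosolic ribosomal proteins had a high share among the classes. A second-tier region lay at 21 of 79 genes (26.6%, 95% Wilson interval 18.1 to 37.2%) and an IDR promoter peak at 31 others (39.2%), so that 52 of 79 (65.8%) had either, against 9.99% of all genes. The 21 genes rested on 20 regions, since rpl-36 and rps-14 shared one. The highest was at rpl-41.2 (67.2), followed by rpl-21 (65.6), rpl-14 (63.9) and rps-21 (62.6). The replicate values were 30.4 and 33.3 at rpl-21, 33.2 and 27.7 at rpl-14, and 39.1 and 26.7 at rps-21, so neither replicate was higher throughout. With the band narrowed to 50 to below 65, 10.1% of the class and 2.64% of all genes had a second-tier region, and nuclear pore and transport genes had the larger share (17.5%). That order also held without replicate 1 (21.5% against 30%) and without replicate 2 (22.8% against 27.5%).

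Other parts of the translation machinery were represented more thinly. Mitochondrial ribosomal proteins had second-tier regions at 9 of 70 genes (12.9%) and IDR promoter peaks at 5 (7.14%), with the highest at mrpl-23 (65.01), mrps-17 (60.4), mrps-10 (59.1) and mrps-7 (49.0). Translation factors had 5 of 36 (13.9%) against 12 with IDR promoter peaks (33.3%). These included eif-3.I (63.1), eif-3.J (60.6), eef-1B.1 (61.0) and eif-6 (45.8), which are subunits of initiation factor complexes, an elongation factor subunit and a ribosome assembly factor. Aminoacyl-tRNA synthetases had 4 of 32 (12.5%) against 5 (15.6%), at gars-1 (62.9), fars-1 (55.5), aars-1 (49.4) and pars-2 (45.4). Low-ranked regions lay at 12.9% of mitochondrial ribosomal protein genes, 16.7% of translation factor genes and 9.38% of synthetase genes, against 10.8% of all genes.

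Genes of nuclear processes followed. Nuclear pore and transport genes had 9 of 40 in each tier (22.5%), with npp-3 (67.1), npp-11 (60.8) and npp-7 (59.6), which are nucleoporins, and ran-3 (63.6), the exchange factor of the Ran GTPase. DNA replication and cell cycle genes had 9 of 62 (14.5%) against 13 (20.97%), with sld-2 (65.1), cye-1 (65.1), the worm cyclin E, mcm-3AP (63.9) and cdc-5L (63.7), the last a homologue of a splicing factor. Chromatin modifiers had 8 of 62 (12.9%) against 14 (22.6%), with met-1 (67.2), set-26 (63.7), jmjd-4 (57.8) and swsn-6 (57.3). Splicing factors had 6 of 47 (12.8%) against 11 (23.4%), with prp-18 (66.5), snr-4 (66.2), an Sm protein, rsp-3 (65.6), an SR protein, and lsm-3 (64.9). RNA polymerase, TAF and Mediator genes had 5 of 55 (9.09%) against 12 (21.8%), with rpc-2 (66.3), mdt-9 (64.9), taf-10 (64.6) and taf-6.2 (53.3). A region shared by lsm-3 and mdt-9 had 44.6 in replicate 1 and 18.2 in replicate 2. Histones had 2 of 75 (2.67%), his-3 and his-4, which shared 1 region (53.9), against 6 (8%). Low-ranked regions lay at 21.8% of RNA polymerase, TAF and Mediator genes, 19.1% of splicing factors and 12.9% of replication and cell cycle genes. They lay at 12.5% of nuclear pore and transport genes, 10.7% of histones and 4.84% of chromatin modifiers, against 10.8% of all genes.

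The classes of protein turnover had as many or more genes with second-tier regions as with IDR promoter peaks. Ubiquitin conjugation genes had 8 of 52 (15.4%, 95% Wilson interval 8.01 to 27.5%) against 4 (7.69%), with ubc-7 (68.9), ubc-9 (65.8), the SUMO-conjugating enzyme, ubc-25 (64.6) and uba-5 (58.3). Proteasome genes had 6 of 33 (18.2%, 95% interval 8.61 to 34.4%) against 5 (15.2%), with the lid subunits rpn-7 (63.3), rpn-9 (60.3), rpn-11 (58.0) and rpn-5 (53.4). Autophagy genes had 4 of 21 in each tier (19.0%), with epg-6 (61.7), lgg-2 (60.03), an LC3 homologue, epg-4 (47.0) and epg-2 (46.7). The intervals of the tiers overlapped in each of these classes, and the proteasome share was 9.09% without replicate 1. Low-ranked regions lay at 15.4% of ubiquitin conjugation genes, 12.1% of proteasome genes and 4.76% of autophagy genes, against 10.8% of all genes.

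Chaperones differed most in the other direction, with 5 of 60 (8.33%, 95% Wilson interval 3.61 to 18.1%) against 20 (33.3%, 95% interval 22.7 to 45.9%). They included the prefoldin subunit pfd-1 (68.2), the J-domain proteins dnj-5 (67.1) and dnj-24 (51.7) and the small heat shock protein hsp-12.2 (61.5). The chaperone share was 20% without replicate 1 and 3.33% without replicate 2. Vesicle traffic genes had 10 of 85 (11.8%) against 20 (23.5%), with vps-32.1 (68.8) and vps-37 (67.1), which are ESCRT subunits, arf-6 (61.1) and sec-8 (57.8). Respiratory chain genes had 4 of 38 (10.5%) against 10 (26.3%), at isp-1 (67.4), the Rieske protein, cyc-2.1 (63.8), a cytochrome c, and the complex I subunits nuo-2 (63.2) and nuo-1 (45.6). V-ATPase genes had 2 of 18 against 5, at vha-16 (62.6) and vha-9 (48.9). Microtubule and motor genes had 1 of 31, dnc-2 (64.6), against 4. Low-ranked regions lay at 21.1% of respiratory chain genes, 15.3% of vesicle traffic genes and 6.67% of chaperone genes. They lay at 6.45% of microtubule and motor genes and 5.56% of V-ATPase genes, against 10.8% of all genes.

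Muscle structure genes had 3 of 25 (12.0%) against 1 (4%), at tni-4 (62.9), a troponin I, pat-4 (57.9), the integrin-linked kinase, and unc-89 (50.7), the worm obscurin. Low-ranked regions were more common there, at 8 of 25 (32%), against 10.8% of all genes. Families of transcription factors, collagens, neuropeptides, channels, detoxification enzymes, lectins, F-box adaptors and chemoreceptors each had a smaller share with second-tier regions than all genes. Nuclear hormone receptors had 5 of 246 (2.03%) against 4, with nhr-49 (69.98), nhr-50 (56.9), nhr-59 (54.3) and nhr-228 (52.4). Homeobox genes had 1 of 59, ceh-100 (59.2), and other transcription factors had 3 of 84 (3.57%), zip-4 (64.2), hlh-30 (57.5), the TFEB homologue, and zip-1 (48.4). Cuticle collagens had 1 of 133, col-142 (48.0), neuropeptides and insulins 1 of 106, flp-14 (45.6), and ion channels 1 of 100, lgc-27 (48.6). Detoxification enzymes had 1 of 171, gst-20 (55.6), C-type lectins 2 of 237, clec-53 (58.3) and clec-140 (55.8), and F-box, MATH and BTB genes 5 of 378 (1.32%). Chemoreceptors had 4 of 1143 (0.350%), and genes with a sequence name alone had 208 of 7676 (2.71%), each under the 4.49% of all genes.

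**Figure D5:**
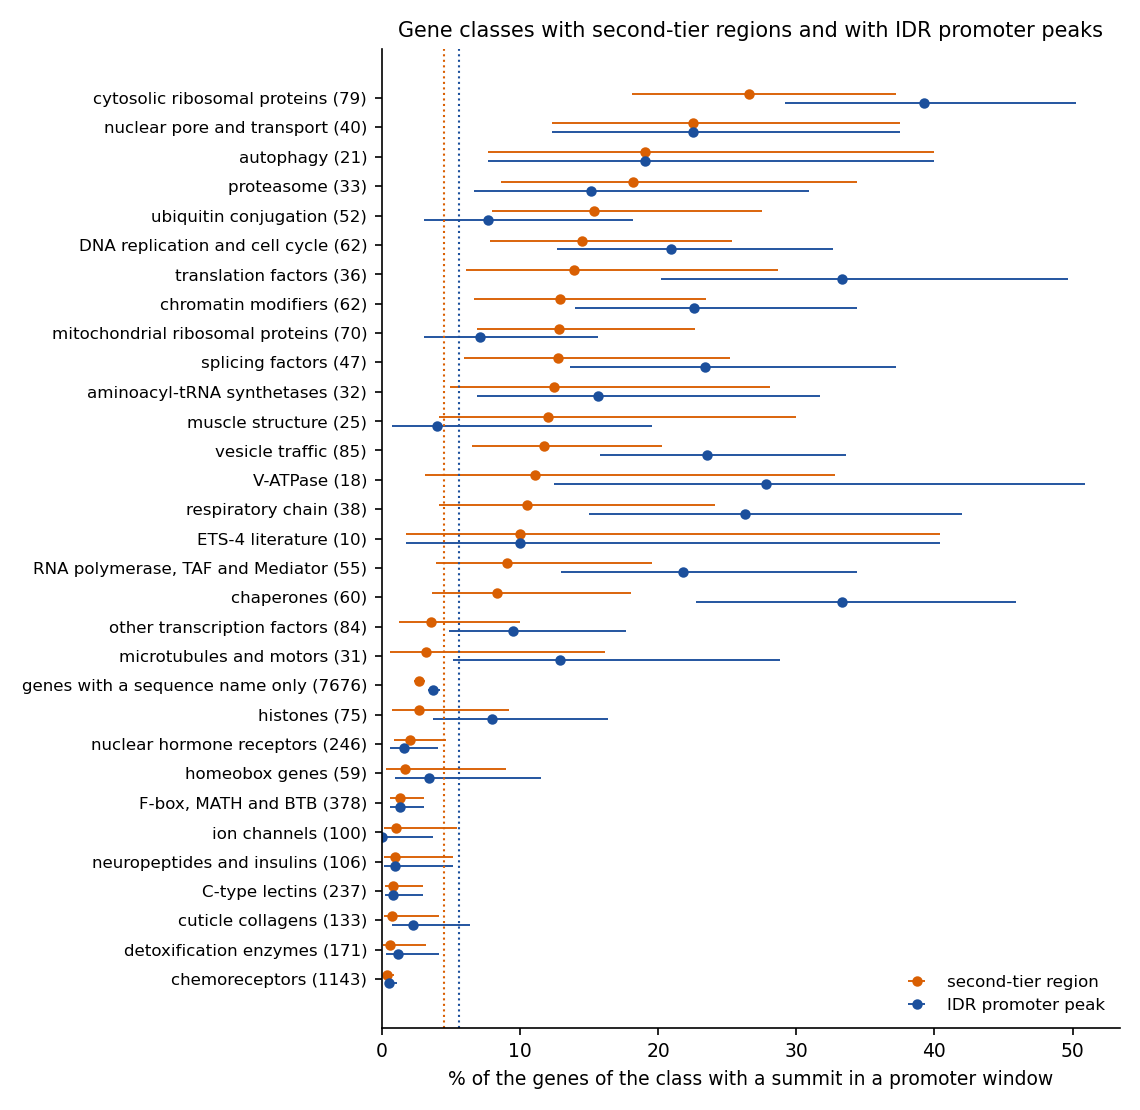
Share of the genes of each class (x axis, percent, class size in parentheses) with a second-tier region (orange) or an IDR promoter peak (blue) in a promoter window, with 95% Wilson intervals. Dotted lines mark the shares of all autosomal protein-coding genes (4.49% and 5.61%). Cytosolic ribosomal proteins are at the top with 26.6% and 39.2%, and chaperones show the widest gap (8.33% and 33.3%).

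Of 10 autosomal genes tied to ETS-4 in earlier work, 1 had a second-tier region and 1 an IDR promoter peak (10% each, against 4.49% and 5.61% of all genes, with a 95% Wilson interval of 1.79 to 40.4%). The first, mlk-1, a kinase of a JNK-like cascade that acts in axon regrowth, had a second-tier region at V:5065188 (377 bp upstream, signal 47.8), with 20.4 in replicate 1 and 30.8 in replicate 2, and without replicate 2 the list had 0 genes with a second-tier region. Its downstream kinase kgb-1 had an IDR promoter peak (133.2). Low-ranked regions lay at daf-16 (26.1), the FOXO factor of the insulin pathway, at dlk-1 (24.6) and at jnk-1 (26.0). The remaining 5 (daf-2, pmk-3, rege-1, rpm-1 and vit-6) had a region of none of the 3 kinds, and neither did the 5 autosomal ETS family genes (ast-1, ets-6, ets-7, ets-8 and lin-1).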

How the data were processed

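ChIP-seq regions of 2 biological replicates (1 group) were analysed. Per the sample readme texts, the authors made each replicate list from 1 set of alignments with a control file, the pooled list from both replicates, and the IDR list from these. For the aligner, the peak caller and the IDR threshold, nothing was stated in the labels or texts used. The lists include weak regions, so presence in a replicate list is a mild condition. The deposited values were signal (column 7, used for ranking and for the band) and −log10 q (column 9). No depth is known. Coordinates are 1-based ce11, summits come from the lists, and sequence comes from RefSeq's WBcel235 (ce11) and genes from Ensembl release 115 (29314 protein-coding starts).

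Fisher's exact tests (scipy 1.17.1) gave odds ratios with 95% Woolf intervals, with 0.5 added to each cell where a cell was 0, and Benjamini-Hochberg adjustment within each family. The word comparison was tested on simulated data with known answers. Both simulated sets were drawn from windows of low-ranked promoter regions, with or without a word placed at a known rate. Differences between the tiers in GC content or gene arrangement were therefore not covered. Members, gene lists, motifs and tests were chosen with earlier results of these data known. Named genes were the 10 regions of highest signal, the 2 on each side of each bound, up to 4 genes per class, all genes of the ETS lists, up to 6 regions per ETS site and joined word, and the 10 words of lowest p. Alternatives were a narrower signal band, other promoter and word windows, stricter replicate overlap, each replicate alone, other comparison sets, GC strata and the results without chromosome III. With a replicate left out, both tiers were rebuilt by rank from the other list. This gave 612 second-tier against 659 upper-tier regions without replicate 1, and 600 against 651 without replicate 2. The ce10 lists served for 1 count.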

Additional observations from a re-analysis of the deposited data

How the results depend on the processing

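Of 701 results recomputed under an alternative, 521 were labelled unchanged. Odds ratios had to keep their direction and side of the threshold, and counts had to stay within 1.5 times. Shares of genes had to stay inside the Wilson interval of the main share, which is a mild condition for small classes. For aminoacyl-tRNA synthetases that interval ran from 4.97 to 28.1%, so a fall from 12.5% to 6.25% with the narrower band was labelled unchanged. The cause of the changes in the other results was not tested, apart from sets that are smaller or different by construction. Words lower in second-tier regions than in IDR promoter peaks (18) numbered 4 with a signal band of 50 to below 65, 0 against the lower 50% of IDR promoter peaks, 0 in flanks 400 to 600 bp away, 32 within 50 bp, 10 within 250 bp, 11 without chromosome III and 9 in windows of 1 gene. Words higher (0) numbered 3 within 50 bp, within 250 bp and with soft-masked bases left out, 2 in windows of 1 gene, and 1 with GC strata, with either other promoter window and without chromosome III, and 0 to 7 without a replicate. Kinds of place called (2) numbered 1 with the narrower band and with summits within 100 bp in both replicates, 0 against the lower 50% and without chromosome III, and 4 with the window of 2000 bp upstream. Chromosomes called (0) numbered 1 with the narrower band, with 50% reciprocal overlap and with summits within 100 bp, and 2 with the 2000 bp window, against the lower 50% and without chromosome III. The narrower band left 345 regions, 624 before the promoter rule. The share of genes was 2.64% with it, 3.52% and 6.26% with the narrower and wider promoter windows and 4.04% with close summits, and that of ribosomal proteins was 10.1% with the narrower band.

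Against the lower 50% of IDR promoter peaks, odds ratios were 0.540 for GGCCTA (adjusted exact p = 0.683), 3.61 for coding exons (0.120), 0.873 for intergenic summits (0.457) and 0.297 for snoRNA genes (0.122), and turned to 0.968 for GACGCA, 0.920 for GAGAGA, 0.738 for tRNA genes and 1.01 for chromosome III. Without chromosome III they were 3.62 for coding exons (0.149) and 0.807 for intergenic summits (0.408). The intergenic value was 0.720 (0.0806) with the narrower band and 0.749 (0.0739) with close summits. The snoRNA value was 0.398 (0.342), 0.307 (0.0815) and 0.327 (0.145) with the narrower band, close summits and the 500 bp window, and 0.353 to 0.459 without a replicate. Without a replicate, GAGAGA fell to 0.955 at its lowest, summits within 200 bp of a start ranged from 0.859 to 1.19, and chromosome III from 0.964 to 1.06. The 2000 bp window gave 0.827 for summits within 200 bp, 1.01 for chromosome III and 0.949 for CCGGAA, which was 0.932 within 250 bp and 0.939 with soft-masked bases left out, GGAA was 0.945 with the 500 bp window, and tRNA genes were 0.790 with it and 0.879 with close summits.

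In the flanks the values were 1.28 for ACGGCC, 1.02 for CGGCCA, 0.841 for CGTCTC, 1.05 for CTAGAA, 1.02 for CTAGGC, 0.937 for GACGCA, 0.895 for GGAA, 1.10 for GGCCAC, 1.00 for GGCCTA and 0.742 for CCGGAAGT. Low-ranked regions are another comparison set, and the odds ratio turned for ACGGCC (1.93), AGGCCA (1.63), ATGGCC (1.59), CACGGC (2.23), CGGCCA (1.92), CTAGGC (1.61), GGCCAC (1.77), GGCCGA (1.74), GGCCTA (1.60), CCGGAA (0.826), GGAA (0.761), TGATAA (0.497), chromosome III (1.49), coding exons (0.161), intergenic summits (2.41), introns (0.461), the promoter share (2.35), snoRNA genes (1.58) and windows of more than 1 gene (2.57). It passed the threshold for GAGACGCAG (4.43), GAGAGA (2.34), summits within 200 bp (1.21) and tRNA genes (3.903), with 269 words higher, 193 lower, 5 kinds of place and 2 chromosomes called. Low-ranked regions found in both replicates, chosen after seeing the data as was the soft-masked setting, gave 2.13 for ACGGCC, 1.25 for AGGCCA, 1.04 for ATGGCC, 1.85 for CACGGC, 1.49 for CGGCCA, 1.47 for CTAGGC, 1.55 for GGCCAC, 1.64 for GGCCGA, 1.12 for GGCCTA, 0.776 for CCGGAA, 0.935 for CCGGAAGT, 0.608 for GGAA, 0.559 for TGATAA, 0.182 for coding exons, 2.19 for intergenic summits, 0.426 for introns, 2.39 for windows of more than 1 gene, 2.53 for GAGACGCAG and 1.66 for GAGAGA, with 86 words higher, 48 lower and 4 kinds of place called. No paired analysis was possible because there was 1 group. Depth is unknown, so what it limits could not be given.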

Other observations

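The 19 genes with a second-tier region and an IDR promoter peak in their promoter windows included lin-28, a regulator of developmental timing, nurf-1, a chromatin remodelling subunit, zfp-1, a zinc finger chromatin protein, and gsa-1, the alpha subunit of a G protein. These genes were chosen after their values were seen. The second-tier and IDR signals were 55.5 and 71.7 at lin-28, 62.5 and 185.1 at nurf-1, 46.2 and 185.1 at zfp-1, and 67.2 and 116.5 at gsa-1. The summits of the pair were 1449 bp apart at lin-28, 5604 bp at nurf-1, 4556 bp at zfp-1 and 1736 bp at gsa-1. At lgg-2 they were 653 bp apart, with 60.03 and 85.997.

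Noncoding genes within 500 bp of second-tier summits were also listed. The region nearest nfm-1 (68.3) lay by 2 transfer RNA genes, the region at Y54G2A.45 (69.4) by 1, and 5 regions lay by microRNA genes, with nurf-1 (62.5) and F44E7.5 (62.2) the highest. These genes were likewise chosen after their values were seen. Against low-ranked promoter regions, transfer RNA genes were near 1.99% of second-tier summits and 0.518% of low-ranked ones (odds ratio 3.903, 95% interval 1.64 to 9.31, adjusted exact p = 0.0106).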
